A study of Homo sapiens with 24 samples.

Results

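The AP-1 transcription factors of T/C-28a2 cells, an immortalised line of human chondrocytes, were followed through 24 RNA-seq libraries. The family was taken as 10 genes chosen by symbol, out of 62703 gene identifiers counted: the Fos genes FOS, FOSB, FOSL1 and FOSL2, the Jun genes JUN, JUNB and JUND, and the related leucine zipper genes ATF3, BATF3 and MAFF. Of the 10 members, 8 passed the filter on low counts, and FOSB and JUNB were listed at 0 in every library. The study asked how the kinase WNK2 and sustained high osmolarity act on chondrocytes. Of its groups, 6 of 4 libraries each are used here.

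WT Ctr cells were unedited, untransfected and kept without sorbitol, and WT Sor cells received 100 mM sorbitol for 7 days. WNK2 trans Ctr and WNK2 trans Sor cells were unedited cells given a WNK2 plasmid with a lipid reagent for 48 h and then kept without or with the same sorbitol treatment. WNK2- Ctr and WNK2- Sor cells carried a Cas9 deletion of exon 2 of WNK2, had been grown out from single clones, and were kept without or with sorbitol. All 6 groups shared medium of low serum content, and cells were harvested with trypsin. No group with an empty plasmid is among the libraries, so transfection as such and the WNK2 plasmid cannot be told apart, nor can the deletion and the choice of clone.

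Library totals ran from 14153002 to 25664619 counts, and every WNK2- library held at least 18578564. WNK2, the targeted gene, had between 1217 and 2568 counts in the libraries labelled WT Ctr but between 163 and 290 in those labelled WNK2 trans Ctr. With sorbitol the range was 266 to 314 counts in untransfected and 2237 to 3739 in transfected cells. The transfected libraries without sorbitol therefore held fewer WNK2 counts than the untransfected ones, which goes against those labels. The WNK2- libraries held 322 to 503 counts, which do not test the deletion since the gene counts do not separate exon 2. Groups were kept as labelled, and for the members the main differences from the libraries labelled WT Ctr or WNK2 trans Ctr are given below against both of these groups. Of the defining chondrocyte genes, SOX9 was listed at 0 in all libraries, COL2A1 reached at most 10.6 CPM (counts scaled to each library's effective total) and ACAN 12.1 CPM, and HAPLN1 stood at 12.8 to 151 CPM. Fibroblast markers were likewise uneven, with COL1A1 at 837 to 5390 CPM and COL3A1 at 54.4 to 1090 CPM but THY1 at 0 and COL1A2, PDGFRA and DCN at no more than 2.55 CPM. Of all 19856 protein-coding genes in the annotation used, 3132 were at 0 throughout, among them SDHA, PRDX2 and OAZ1, which every cell uses.

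AP-1 is a dimer of leucine zipper proteins. Jun proteins pair with themselves or with Fos proteins, Fos proteins need a partner, and ATF and Maf proteins form further mixed dimers. Fos and Jun genes are classic immediate early genes, switched on by MAP kinase signalling within minutes of serum, cytokines or stress, and FOS falls back quickly while FOSL1 and FOSL2 follow later. In cartilage the dimers are known for driving matrix metalloproteinase and cytokine genes. FOSL2 mRNA was higher with sorbitol in untransfected, transfected and WNK2- cells alike, and FOS mRNA was higher in WT Sor than in either group of unedited controls. In WNK2- cells FOS was far lower while FOSL1, FOSL2 and JUN were higher, and in WNK2 trans Sor cells FOSL1 and JUN were again higher, with FOS in between.

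The promoters of 3 members with contrasting patterns are shown first, FOS because it was low in WNK2- cells and FOSL2 and JUN because they were high there. The letters are the 250 bases before the RefSeq start in GRCh38.p14, read 5′ to 3′ along the gene. Capitals mark matches to TGACGT, the core of the cyclic AMP response element (CRE), to TGACATCA, the CRE variant known from JUN, and to the TATA box TATAAA.
FOS, chr14:75278578-75278827, plus strand: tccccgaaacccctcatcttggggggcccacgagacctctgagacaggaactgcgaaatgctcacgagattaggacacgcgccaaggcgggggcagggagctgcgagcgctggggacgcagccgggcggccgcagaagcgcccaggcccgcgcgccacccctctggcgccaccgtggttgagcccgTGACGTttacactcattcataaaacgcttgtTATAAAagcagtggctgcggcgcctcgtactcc
FOSL2, chr2:28392608-28392857, plus strand: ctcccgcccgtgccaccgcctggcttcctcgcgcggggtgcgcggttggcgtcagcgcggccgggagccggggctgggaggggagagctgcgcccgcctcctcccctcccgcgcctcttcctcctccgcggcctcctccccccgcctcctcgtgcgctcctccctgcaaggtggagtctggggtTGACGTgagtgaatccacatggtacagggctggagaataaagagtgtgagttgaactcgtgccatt
JUN, chr1:58784048-58784297, minus strand: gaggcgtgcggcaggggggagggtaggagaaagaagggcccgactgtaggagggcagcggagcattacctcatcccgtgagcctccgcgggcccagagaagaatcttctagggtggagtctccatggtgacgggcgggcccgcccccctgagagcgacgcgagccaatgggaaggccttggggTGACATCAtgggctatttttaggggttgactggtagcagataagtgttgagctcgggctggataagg

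The match began 64 bases before the start in FOS, 66 in FOSL2 and 67 in JUN. Windows were at hand for 8 of the 10 members, 10 windows in all, and not for FOSL1 and BATF3. The same TGACGT core lay 60 bases before the start of FOSB, and the whole CRE TGACGTCA, which contains it, 54 bases before one start of MAFF and 200 before that of JUND. JUND had a further TGACGT on the opposite strand, 87 bases before the start. ATF3 had TGACATCA 123 bases before one of its starts. TATAAA stood 33 bases before the start in FOS, 30 in FOSB and 31 in JUNB, and 230 before the second ATF3 start. Searched on both strands of 35116 human windows of this length, TGACGT occurred in 7.1%, TGACGTCA in 1.65%, TGACATCA in 2.37% and TATAAA in 10.7%. The AP-1 element itself, written TGANTCA, occurred in 6.57% of all windows and in none of the members'. These matches describe sequence only, since no library measured binding.

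**Figure D1:**
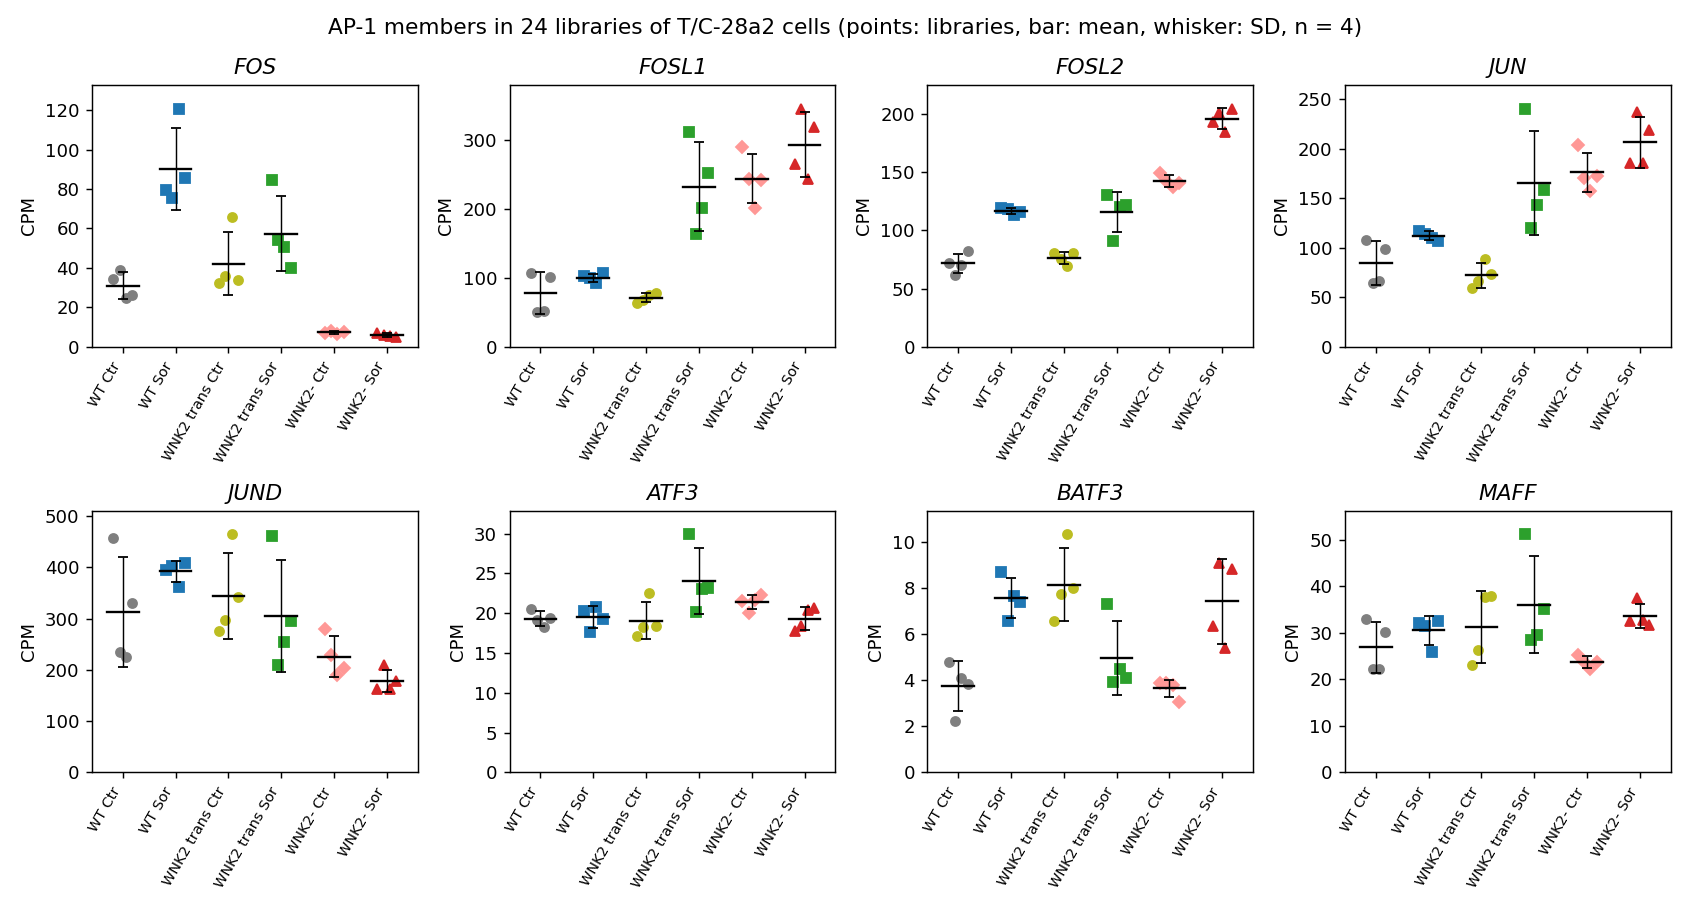
CPM of the 8 measured AP-1 members in each library (points), with the mean (bar) and SD (whisker) of the 4 libraries of each labelled group. FOS was lowest in both WNK2- groups, 4.73 to 7.80 CPM, where FOSL1, FOSL2 and JUN were high.

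Counted by comparison, WT Sor against the libraries labelled WT Ctr gave 3 of 8 tested members higher and none lower, where 24.1% of all 16600 tested genes passed, 11.4% higher and 12.7% lower. Without replicate 1 of the libraries labelled WT Ctr it gave 6, the further ones being FOSL1 (0.56, adjusted p = 0.0471), JUN (0.55, adjusted p = 0.0295) and JUND (0.58, adjusted p = 0.0415). Against the libraries labelled WNK2 trans Ctr, WT Sor again gave 3 higher and none lower (all genes 15.1%, with 8.74% higher and 6.31% lower). Sorbitol in WNK2- cells gave 3 higher and none lower (14.9%, with 8.25% higher and 6.64% lower). WNK2- Ctr gave 3 higher and 1 lower against the libraries labelled WT Ctr (42.1%, with 20.7% higher and 21.5% lower), and 3 higher and 3 lower against those labelled WNK2 trans Ctr (47.7%, with 24% higher and 23.7% lower). WNK2- Sor gave 3 higher and 2 lower against WT Sor (46.3%, with 23.7% higher and 22.7% lower).

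The libraries labelled WNK2 trans Ctr differed from those labelled WT Ctr in 1 member, which was higher (12.5%, with 5.57% higher and 6.98% lower). WNK2 trans Sor gave 3 higher and 2 lower against WT Sor (31.7%, with 16.1% higher and 15.5% lower), and 5 higher and none lower against the libraries labelled WT Ctr (39.2%, with 19.8% higher and 19.5% lower). Against the libraries labelled WNK2 trans Ctr it gave 4 higher and 1 lower (48%, with 24.3% higher and 23.7% lower). Without WT Sor replicate 3, only 2 members passed in WNK2 trans Sor against WT Sor. The sorbitol response differed with genotype in 1 member, which was lower (8.65%, with 3.99% higher and 4.66% lower), and with transfection in 4, of which 2 were higher and 2 lower (35.5%, with 18.1% higher and 17.4% lower). All 4 libraries of one group lay beyond all 4 of the other in 3 members for WT Sor against the libraries labelled WT Ctr (25.7% of all genes), 4 against those labelled WNK2 trans Ctr (25.7%), 4 for WNK2- Ctr against the libraries labelled WT Ctr (36.9%), 5 for WNK2- Sor against WT Sor (53.9%), 2 for WNK2 trans Sor against WT Sor (30.3%), 3 for WNK2- Sor against WNK2- Ctr (28.4%) and 3 for WNK2 trans Sor against the libraries labelled WNK2 trans Ctr (34.4%). With 8 members, these shares do not set the family apart from other genes. What follows is therefore about which members moved.

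FOS, the founding Fos gene (ENSG00000170345, chr14:75278774-75282230, plus strand, GRCh38), had the widest range over libraries, 25.5 times from lowest to highest. The libraries labelled WT Ctr held 34.3, 38.8, 24.7 and 26.3 CPM and WT Sor held 79.3, 75.3, 121 and 85.6 CPM. All 4 sorbitol libraries lay above all 4 controls. The fitted rise was 1.54 ± 0.22 on the log2 scale (SE, edgeR quasi-likelihood adjusted p = 2.05e-05), and 1.102 ± 0.22 against the libraries labelled WNK2 trans Ctr (adjusted p = 0.000892). WNK2- Ctr held 6.76, 7.80, 6.67 and 7.58 CPM and WNK2- Sor 7.03, 5.86, 5.42 and 4.73 CPM. No WNK2- library came near an unedited one, and the WNK2- groups overlapped each other. FOS was lower in WNK2- Ctr than in the libraries labelled WT Ctr by -2.11 ± 0.24 (adjusted p = 1.11e-07) and than in those labelled WNK2 trans Ctr by -2.54 ± 0.24 (adjusted p = 2.84e-09). Between the sorbitol groups the log2 difference was -3.96 ± 0.25 (adjusted p = 1.85e-12).

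Sorbitol did not raise FOS detectably in WNK2- cells (log2 change -0.31 ± 0.25, adjusted p = 0.455). The sorbitol response itself differed between the genotypes by -1.86 ± 0.33 on the log2 scale (interaction, adjusted p = 0.000717). That test rests on the libraries labelled WT Ctr. In the libraries labelled WNK2 trans Ctr FOS stood at 32.6, 36.0, 65.9 and 33.7 CPM, and in WNK2 trans Sor at 84.8, 54.2, 50.5 and 40.05 CPM. These groups overlapped, with 1 control library apart from the other 3 (log2 change 0.45 ± 0.22, adjusted p = 0.0937). Against the libraries labelled WT Ctr, WNK2 trans Sor was higher without overlap (0.89 ± 0.22, adjusted p = 0.00257). Without replicate 3 of the libraries labelled WNK2 trans Ctr the change from those libraries was 0.76 (adjusted p = 0.00393), and it was 0.48 (adjusted p = 0.0262) with a GC and length trend removed, a step described below for JUND. WNK2 trans Sor lay below WT Sor by -0.65 ± 0.22 (adjusted p = 0.0229), a call lost on leaving out any of 4 libraries, as when WT Sor replicate 3 was left out (-0.49, adjusted p = 0.108).

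FOSL1 (ENSG00000175592, chr11:65892049-65900573, minus strand), which codes for FRA1, a Fos protein known from invasive and mesenchymal cells, ran the other way in WNK2- cells. It stood at 107, 50.8, 52.4 and 102 CPM in the libraries labelled WT Ctr and at 290.2, 244, 202 and 242 CPM in WNK2- Ctr. The lowest WNK2- library was above the highest control. The rise was 1.65 ± 0.21 (adjusted p = 5.63e-07), and 1.78 ± 0.21 against the libraries labelled WNK2 trans Ctr (adjusted p = 1.11e-07). With sorbitol FOSL1 reached 266, 346, 244 and 319.6 CPM in WNK2- Sor against 103, 100.5, 92.3 and 107 CPM in WT Sor. The groups were again apart, by 1.55 ± 0.21 (adjusted p = 8.67e-07). WNK2 trans Sor held 313, 164, 202 and 252 CPM, and the libraries labelled WNK2 trans Ctr 64.3, 67.2, 75.9 and 77.5 CPM. Sorbitol thus came with a rise of 1.71 ± 0.21 in transfected cells (adjusted p = 2.50e-07) and with 0.36 ± 0.20 in untransfected ones (adjusted p = 0.202). WT Sor differed from the libraries labelled WNK2 trans Ctr by 0.50 ± 0.20 (adjusted p = 0.104). The difference of these responses was 1.34 ± 0.29 (interaction, adjusted p = 0.000726). WNK2 trans Sor exceeded WT Sor by 1.21 ± 0.20 (adjusted p = 6.26e-05) and the libraries labelled WT Ctr by 1.58 ± 0.21 (adjusted p = 1.60e-06).

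**Figure D2:**
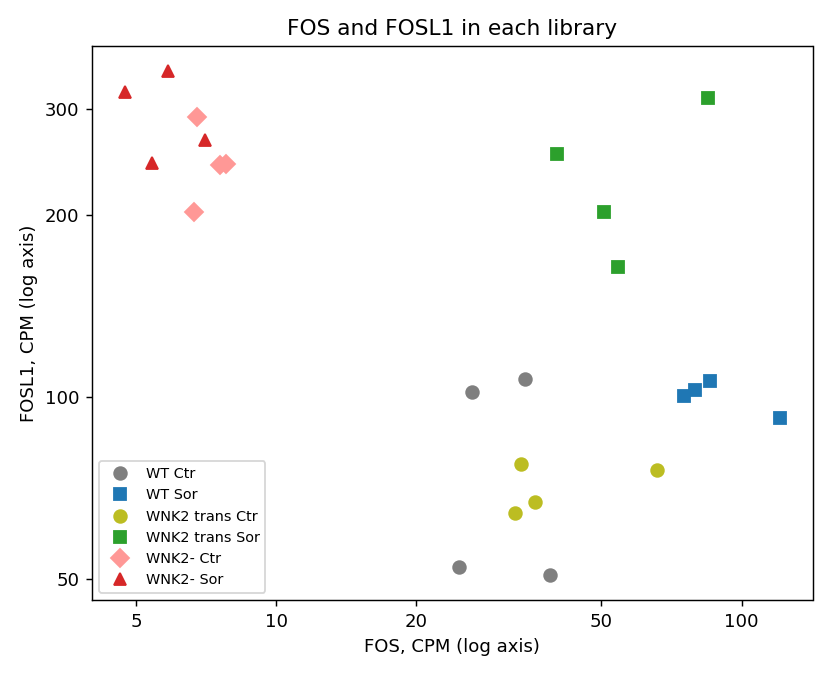
FOS (x axis) and FOSL1 (y axis) in CPM on log axes, 1 point per library, coloured by labelled group. WNK2- libraries sit at the upper left, with FOSL1 above 200 CPM and FOS below 8 CPM, and WNK2 trans Sor at the upper right.

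Per length of merged exon (RPKM), FOSL1 exceeded FOS in every library, by 1.31 to 2.29 times in WT Sor, 2.25 to 6.64 times in the libraries labelled WT Ctr, 52.1 to 73.7 times in WNK2- Ctr and 64.9 to 116 times in WNK2- Sor. FOS made up 7.93% of the members' summed RPKM in WT Sor on average and 0.513% in WNK2- Sor. FOSL1 made up 15.1% and 44.1%. In the libraries labelled WT Ctr the order of mean levels per length was JUND (168 ± 57.9 RPKM, SD, n = 4), FOSL1 (41.4 ± 16.2), JUN (23.8 ± 6.25), FOSL2 (10.0 ± 1.16), FOS (9.58 ± 2.05), MAFF (4.78 ± 0.980), ATF3 (4.78 ± 0.240) and BATF3 (1.383 ± 0.396). FOSL1 and JUN, FOSL2 and FOS, and MAFF and ATF3 did not differ there beyond the sum of their SDs. In WNK2- Sor the order was FOSL1 (156 ± 25.0 RPKM), JUND (95.5 ± 11.7), JUN (58.4 ± 7.28), FOSL2 (27.4 ± 1.26), MAFF (5.99 ± 0.451), ATF3 (4.78 ± 0.354), BATF3 (2.74 ± 0.677) and FOS (1.78 ± 0.298). FOS was thus the lowest of the measured members in that group, and the last pair lay within about the sum of their SDs.

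FOSL2 (ENSG00000075426, chr2:28392448-28417312, plus strand) codes for FRA2, a Fos protein with roles in bone and cartilage growth. The libraries labelled WT Ctr held 72.4, 61.7, 70.5 and 82.0 CPM, and WT Sor 119, 119, 113 and 116 CPM. The groups did not overlap (0.70 ± 0.10, adjusted p = 9.68e-06), and WT Sor exceeded the libraries labelled WNK2 trans Ctr by 0.61 ± 0.10 (adjusted p = 6.23e-05). In WNK2- cells 149, 142, 137 and 141 CPM without sorbitol became 193, 201, 185 and 205 CPM with it, again without overlap (0.46 ± 0.09, adjusted p = 0.00121). In transfected cells FOSL2 went from 80.5, 75.6, 69.3 and 80.3 CPM in the libraries labelled WNK2 trans Ctr to 130.1, 90.8, 121 and 122 CPM (0.60 ± 0.10, adjusted p = 1.35e-05). FOSL2 was the 1 member of the 8 that passed the test with sorbitol in all 3 backgrounds in the same direction. Neither interaction passed (genotype -0.24 ± 0.13, adjusted p = 0.281, and transfection -0.10 ± 0.13, adjusted p = 0.591). WNK2- Ctr exceeded the libraries labelled WT Ctr by 0.99 ± 0.10 (adjusted p = 7.83e-09) and those labelled WNK2 trans Ctr by 0.90 ± 0.10 (adjusted p = 2.45e-08). With sorbitol the difference between the genotypes was 0.75 ± 0.10 (adjusted p = 4.24e-07). WNK2 trans Sor and WT Sor differed by -0.01 ± 0.09 (adjusted p = 0.956). WNK2 trans Sor exceeded the libraries labelled WT Ctr by 0.69 ± 0.10 (adjusted p = 3.42e-06).

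JUN (ENSG00000177606, chr1:58780788-58784327, minus strand), the founding Jun gene, followed FOSL1. Its libraries labelled WT Ctr held 107, 64.0, 66.8 and 99.1 CPM, and WNK2- Ctr held 204, 171, 157 and 172 CPM. All WNK2- libraries were higher, by 1.06 ± 0.18 (adjusted p = 3.24e-05), and by 1.29 ± 0.18 against the libraries labelled WNK2 trans Ctr (adjusted p = 1.75e-06). With sorbitol the values were 117, 114, 109.9 and 107 CPM in WT Sor, 185, 237, 185 and 219 CPM in WNK2- Sor and 240.4, 119, 143 and 159 CPM in WNK2 trans Sor. WNK2- Sor stood above WT Sor by 0.88 ± 0.18 (adjusted p = 0.000201) and WNK2 trans Sor by 0.56 ± 0.18 (adjusted p = 0.0169). The latter call was lost on leaving out 1 library. Without WNK2 trans Sor replicate 1 it was 0.31 (adjusted p = 0.119), and without WT Sor replicate 4 it was 0.53 (adjusted p = 0.0526). Against the libraries labelled WNK2 trans Ctr, at 59.3, 66.8, 88.8 and 73.8 CPM, JUN rose with sorbitol by 1.20 ± 0.18 (adjusted p = 5.87e-06). WNK2 trans Sor exceeded the libraries labelled WT Ctr by 0.97 ± 0.18 (adjusted p = 0.000124). In WT Sor the change was 0.41 ± 0.18 from the libraries labelled WT Ctr (adjusted p = 0.0945) and 0.63 ± 0.18 from those labelled WNK2 trans Ctr (adjusted p = 0.0159). The latter call was lost without WNK2 trans Ctr replicate 1 (0.56, adjusted p = 0.0551) or replicate 2 (0.60, adjusted p = 0.0501). The interaction was 0.79 ± 0.25 (adjusted p = 0.0166), a call lost without WNK2 trans Sor replicate 1 (0.53, adjusted p = 0.0517).

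Over the 24 libraries FOSL1 and JUN had the most alike levels of all 12159 genes compared, each for the other (Pearson r = 0.973 of log2 CPM, a description without a test). The next for FOSL1 were COL13A1 (0.964) and SMTN (0.963), and for JUN EHD1 (0.961) and SMTN (0.957). The genes most like FOS were FRZB (0.971), STAT2 (0.965) and ST3GAL5 (0.958), and those most like FOSL2 were GOLGA3 (0.966), LAMB3 (0.965) and PXN (0.965). Likeness was weaker for BATF3 (ANGPTL4, 0.890), MAFF (RASSF1, 0.850) and ATF3 (KRT18, 0.732). The libraries share group, depth and base composition, so these values do not show a link between genes. FOS and FOSL1 had r = -0.58 over all libraries, but their deviations from the group means had r = 0.0971.

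JUND (ENSG00000130522, chr19:18279760-18281622, minus strand), a Jun gene known for steady expression, was the most abundant member per length in the unedited groups. It held 458, 236, 226 and 331 CPM in the libraries labelled WT Ctr, 396, 402, 362 and 409.5 CPM in WT Sor, 279.9, 229.7, 190.1 and 205 CPM in WNK2- Ctr and 163, 209, 162 and 178 CPM in WNK2- Sor. The spread among the WT Ctr libraries was wide, while WT Sor and WNK2- Sor were tight and apart. JUND was lower in WNK2- Sor than in WT Sor (-1.14 ± 0.21, adjusted p = 9.92e-05). Without sorbitol the difference was -0.47 ± 0.21 (adjusted p = 0.0795) from the libraries labelled WT Ctr and -0.61 ± 0.21 (adjusted p = 0.0207) from those labelled WNK2 trans Ctr. The latter held 276, 297, 464 and 342 CPM and WNK2 trans Sor 461, 209, 254 and 296 CPM, which overlapped.

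These values moved with the libraries' base composition. JUND is the member richest in GC (69.7% of its transcript bases, against 45.6% to 61.9% in the other 7 tested members). In each library a smooth curve of counts on GC and gene length was fitted, and its value at JUND ran from -1.24 to 0.727 on the log2 scale, and JUND's level followed it (r = 0.663 over 24 libraries and 0.923 within groups, as a description). With the curve removed, a step chosen after the data were seen, JUND in WNK2- Sor was lower than in WT Sor by -0.58 (adjusted p = 1.07e-05). The same step turned WNK2 trans Sor against WT Sor from -0.36 to 0.53 (adjusted p = 7.00e-05), so no direction is given for JUND in transfected cells. WNK2- Ctr against the libraries labelled WNK2 trans Ctr became -0.15 (adjusted p = 0.182), and against those labelled WT Ctr it became -0.52 (adjusted p = 5.49e-05). The trend within groups also went with JUN (r = 0.962), FOSL1 (0.868) and MAFF (0.867), over narrower ranges of -0.276 to 0.241, -0.446 to 0.35 and -0.644 to 0.424. FOS had r = 0.707 over -0.077 to 0.176, and FOSL2 0.684 over -0.103 to 0.0866. For BATF3 r was -0.612 and for ATF3 -0.106. Over the 12 comparisons, removing the trend changed no call of FOSL2 and 1 of FOSL1, which became higher in WT Sor than in the libraries labelled WNK2 trans Ctr (0.52, adjusted p = 0.00264). It gave JUN 1 further call, in WT Sor against the libraries labelled WT Ctr (0.41, adjusted p = 0.00904). MAFF gained 6, all higher, and ATF3 lost its 3, as given with these genes.

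**Figure D3:**
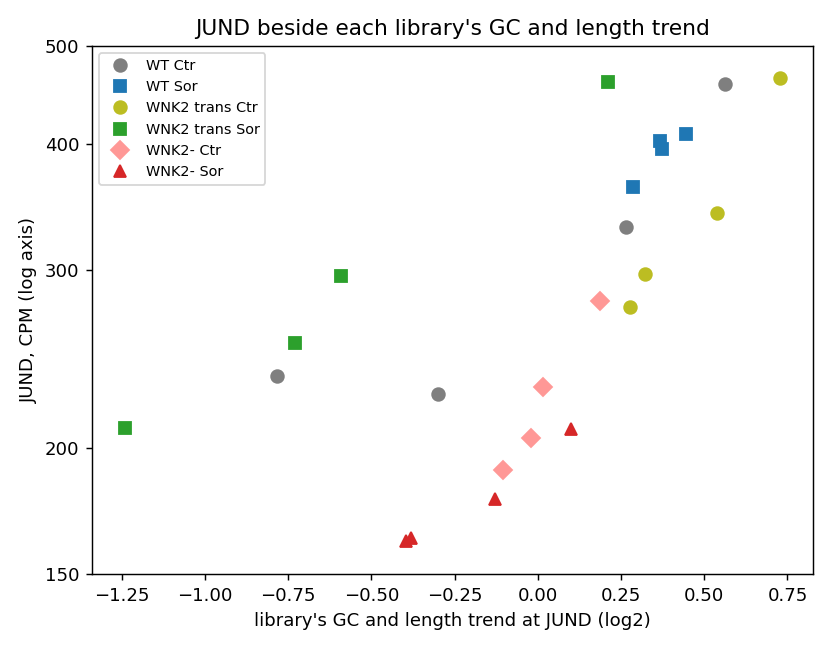
JUND level in CPM (log axis) against the value at JUND of each library's curve of counts on GC and length (log2), 1 point per library, coloured by labelled group. Deviations from the group means of level and curve had r = 0.923, and the curve ran from -1.24 to 0.727.

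BATF3 (ENSG00000123685, chr1:212686418-212699985, minus strand), a small zipper protein known from dendritic cells that lacks an activation domain, had the lowest mean CPM over all libraries, with 35 to 201 counts per library. The libraries labelled WT Ctr held 4.79, 2.26, 4.12 and 3.83 CPM and WT Sor 8.72, 6.57, 7.68 and 7.39 CPM. The groups were apart (1.02 ± 0.23, adjusted p = 0.00186). WNK2- cells showed a like step, from 3.87, 3.87, 3.80 and 3.08 CPM to 6.36, 9.13, 5.42 and 8.86 CPM (1.02 ± 0.22, adjusted p = 0.00172). In transfected cells the values went from 6.57, 7.76, 10.3 and 8.01 CPM among control libraries labelled as transfected to 7.34, 3.94, 4.49 and 4.10 CPM with sorbitol. In all, 1 sorbitol library overlapped the controls there (-0.73 ± 0.22, adjusted p = 0.00798). Against the libraries labelled WT Ctr the difference was 0.40 ± 0.23 (adjusted p = 0.176), so the direction in transfected cells depends on the comparator. The responses of transfected and untransfected cells differed by -1.74 ± 0.31 (interaction, adjusted p = 0.000109), and the genotype interaction was 0.01 ± 0.31 (adjusted p = 0.992). This difference rests on the 2 groups whose WNK2 counts go against their labels. BATF3 was higher in the libraries labelled WNK2 trans Ctr than in those labelled WT Ctr (1.12 ± 0.22, adjusted p = 0.00109), and WT Sor did not differ detectably from the former (-0.11 ± 0.21, adjusted p = 0.803). WNK2- Ctr differed from the libraries labelled WT Ctr by -0.04 ± 0.23 (adjusted p = 0.913) and from those labelled WNK2 trans Ctr by -1.16 ± 0.22 (adjusted p = 0.000111). BATF3 in WNK2 trans Sor was lower than in WT Sor by -0.62 ± 0.22 (adjusted p = 0.0323), a call lost in 6 of the 8 fits that left out 1 library of these groups.

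MAFF (ENSG00000185022, chr22:38200767-38216511, plus strand), a small Maf protein that also lacks an activation domain, lay between 22.1 and 51.1 CPM in all libraries. WNK2- Ctr held 25.3, 23.6, 22.2 and 23.8 CPM and WNK2- Sor 32.6, 37.4, 32.8 and 31.8 CPM. These groups did not overlap, but the rise of 0.50 ± 0.17 barely passed (adjusted p = 0.0488) and lost its call in each of the 8 fits without 1 library (adjusted p = 0.0731 to 0.127), while with the GC and length trend removed it was 0.63 (adjusted p = 1.27e-05). No other pairwise change of MAFF passed. With the GC and length trend removed, MAFF was higher in WNK2 trans Sor than in WT Sor by 0.66 (adjusted p = 3.55e-06), where the plain fit gave 0.24 ± 0.17 (adjusted p = 0.302). The same step also called it higher in WNK2 trans Sor than in the libraries labelled WNK2 trans Ctr (0.71) and WT Ctr (0.73), in WNK2- Sor than in WT Sor (0.45), and in the genotype (0.57) and transfection (0.64) interactions, with adjusted p from 5.91e-07 to 0.00508.

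ATF3 (ENSG00000162772, chr1:212565334-212620777, plus strand), a stress-induced repressor and activator, had the narrowest range over libraries, 1.74 times from lowest to highest. Group means ran from 19.1 ± 2.34 to 24.03 ± 4.14 CPM (SD, n = 4), the latter in WNK2 trans Sor with 29.9, 20.1, 23.0 and 23.1 CPM. Only that group's comparisons passed, with 0.30 ± 0.11 against WT Sor (adjusted p = 0.0416), 0.33 ± 0.11 against the libraries labelled WNK2 trans Ctr (adjusted p = 0.0159) and 0.31 ± 0.11 against those labelled WT Ctr (adjusted p = 0.0273). Without replicate 1 of WNK2 trans Sor they were 0.16, 0.20 and 0.19, and none passed (adjusted p = 0.23, 0.118 and 0.154). With the GC and length trend removed they were 0.13, 0.15 and 0.23, and again none passed (adjusted p = 0.373, 0.283 and 0.0916). Sorbitol in WT cells moved ATF3 by 0.02 ± 0.11 (adjusted p = 0.941).

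FOSB (ENSG00000125740, chr19:45467995-45475179, plus strand), a serum-induced Fos gene, and JUNB (ENSG00000171223, chr19:12791496-12793315, plus strand), a Jun gene of the immediate early response, had no count in any library. FOSB lies within the span of ERCC1 on the opposite strand, with 0% of its exon bases shared, and JUNB within the span of HOOK2 on the opposite strand, with 14.2% shared. Since genes that every cell uses were also listed at 0, these zeros say nothing of the absence of either mRNA.

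**Figure D4:**
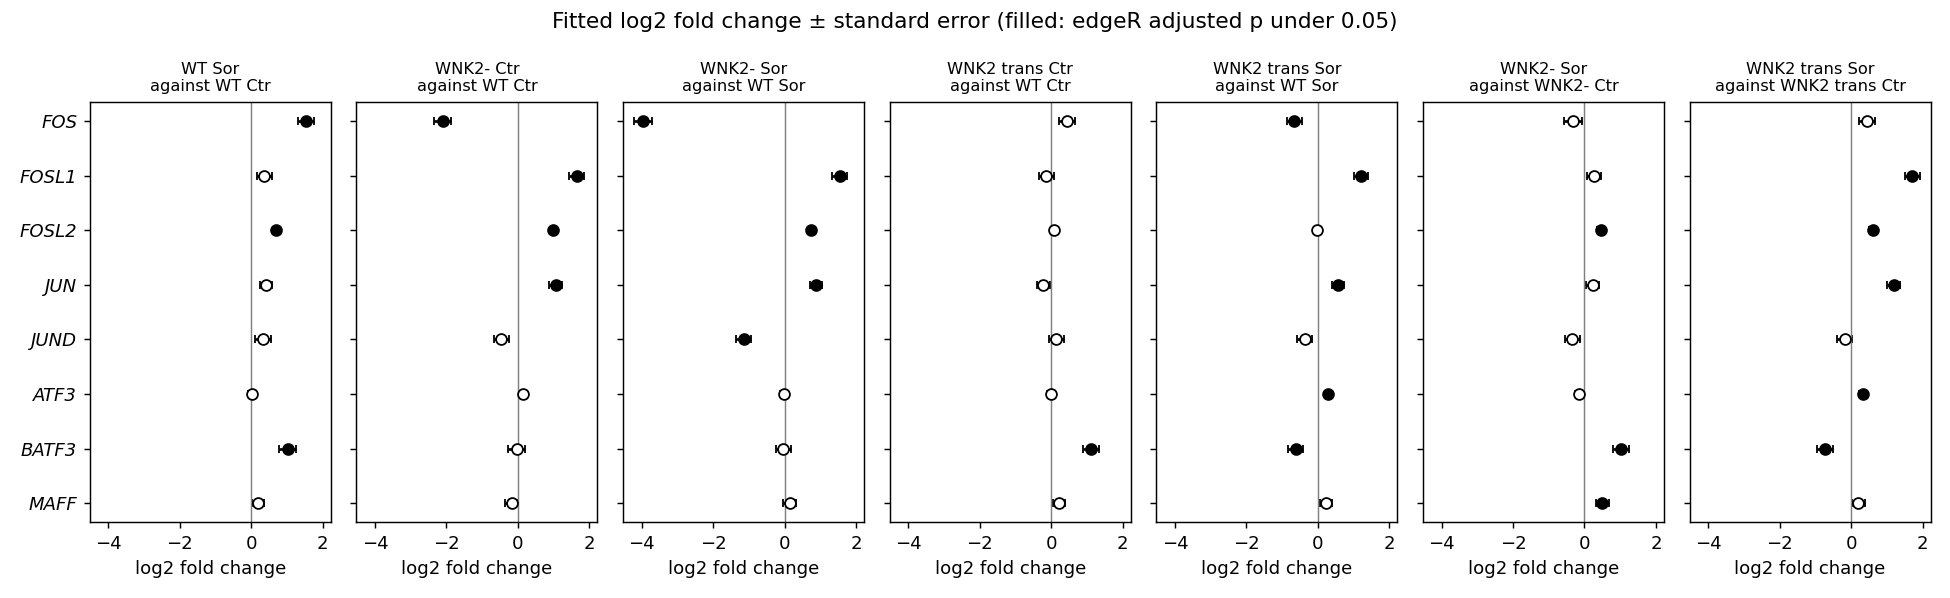
Fitted log2 fold change (x axis) with standard error for each measured member in 7 comparisons, from the fit of all 24 libraries; filled points have an edgeR adjusted p under 0.05. FOS lies at -2.11 and -3.96 where WNK2- groups are compared with WT groups, opposite to FOSL1, FOSL2 and JUN.

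Of 23 genes that textbooks name as AP-1 targets, 18 were tested. This list and the further ones below were chosen with earlier results of these data known. Their shares beside those of all genes are therefore a description and no test of the lists. In WNK2 trans Sor 14 were higher and 2 lower than in WT Sor (median log2 change 1.06, all tested genes 0.01). That was 88.9% of them beside 31.7% of all genes. Against the libraries labelled WNK2 trans Ctr 16 were higher and 2 lower (median 1.66), 100% of them beside 48% of all genes. MMP3, the stromelysin that degrades proteoglycan and collagens, rose by 4.34 ± 0.22 against WT Sor (adjusted p = 2.18e-13), from 1.19 to 24.4 CPM. CXCL8, a neutrophil chemokine, rose by 2.49 ± 0.13 (adjusted p = 4.99e-13). GJA1, the connexin 43 gene, fell by 1.499 ± 0.09 (adjusted p = 1.11e-11), and HMOX1, a haem-degrading enzyme, fell by 0.56 ± 0.16 (adjusted p = 0.00939). Sorbitol in WNK2- cells raised 11 and lowered none (median 0.50), 61.1% of them beside 14.9% of all genes. MMP3 went from 4.597 to 84.4 CPM there (4.20 ± 0.19, adjusted p = 5.02e-14) and CCL2, a monocyte chemokine, rose by 1.86 ± 0.14 (adjusted p = 7.11e-10).

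Between WNK2- and unedited groups the targets differed in both directions. In WNK2- Sor 9 were higher and 7 lower than in WT Sor, 88.9% of them beside 46.3% of all genes. MMP3 was higher by 6.13 ± 0.22 (adjusted p = 4.29e-17) and IL1B, the interleukin-1β gene, by 3.52 ± 0.16 (adjusted p = 4.40e-15). PTGS2, which codes for the prostaglandin enzyme COX-2, was lower by -3.61 ± 0.17 (adjusted p = 4.10e-15), at 44.4 CPM against 543 CPM, and GJA1 by -3.00 ± 0.10 (adjusted p = 9.46e-18). Without sorbitol 9 were higher and 5 lower than in the libraries labelled WNK2 trans Ctr (77.8% of them, all genes 47.7%). Against those labelled WT Ctr 6 were higher and 7 lower (72.2%, all genes 42.1%), with MMP3 at 4.02 ± 0.31 (adjusted p = 1.14e-10) and CCL2 at -2.61 ± 0.14 (adjusted p = 3.10e-13). Against the libraries labelled WNK2 trans Ctr these were 4.36 ± 0.31 (adjusted p = 2.02e-11) and -2.09 ± 0.14 (adjusted p = 8.26e-12).

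WT Sor against the libraries labelled WT Ctr gave 7 higher, such as PTGS2 (1.62 ± 0.15, adjusted p = 4.61e-08), and 3 lower, such as CXCL8 (-1.20 ± 0.13, adjusted p = 2.60e-07) and the collagenase gene MMP13 (-1.01 ± 0.16, adjusted p = 7.08e-05). The share called was 55.6% of the tested targets beside 24.1% of all genes. With the other comparator 13 were higher and 1 lower (77.8%, all genes 15.1%), and PTGS2 stood at 1.68 ± 0.15 (adjusted p = 1.85e-08). The 2 falls depend on the comparator. CXCL8 was higher in WT Sor than in the libraries labelled WNK2 trans Ctr (1.299 ± 0.13, adjusted p = 1.10e-07), and MMP13 did not differ detectably from them (-0.07 ± 0.16, adjusted p = 0.839). In the controls themselves 11 targets were lower and 1 higher in the libraries labelled WNK2 trans Ctr than in those labelled WT Ctr. That was 66.7% of those tested beside 12.5% of all genes.

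**Figure D5:**
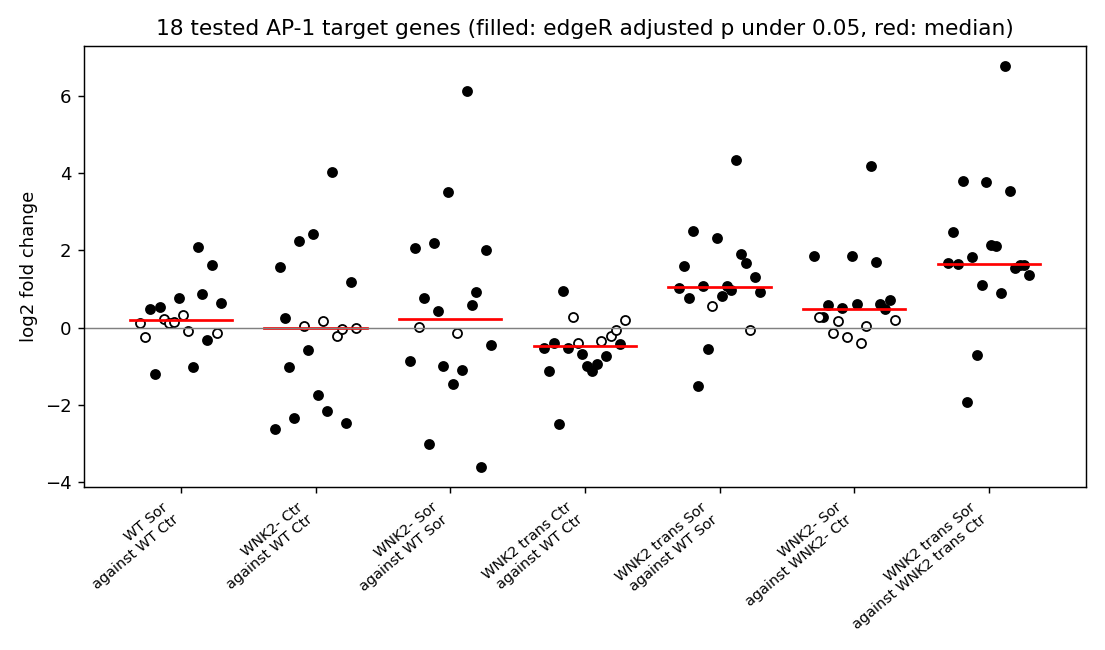
Log2 fold change (y axis) of the 18 tested AP-1 target genes in 7 comparisons; each point is a gene, filled where the edgeR adjusted p is under 0.05, and the red line is the median. The medians are 1.06 for WNK2 trans Sor against WT Sor and 1.66 against WNK2 trans Ctr. The comparisons of WNK2- with WT groups spread to both sides.

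The other immediate early genes, 28 in the list and 23 tested, included further large differences. EGR1, a zinc finger factor induced by the same signals as FOS, was lower in WNK2- Sor than in WT Sor by -4.93 ± 0.25 (adjusted p = 2.51e-14), at 6.18 against 189 CPM, and its sorbitol response differed between genotypes by -2.54 ± 0.31 (adjusted p = 5.93e-06). EGR3 was lower there by -2.55 ± 0.38 (adjusted p = 5.28e-06). In that comparison 12 of the 23 were lower and 3 higher (65.2% of them beside 46.3% of all genes), among the latter KLF6 (1.17 ± 0.10, adjusted p = 2.14e-10) and the pseudokinase gene TRIB1 (0.55 ± 0.08, adjusted p = 6.02e-06). WT Sor against the libraries labelled WT Ctr gave 9 higher and 1 lower (43.5% of them, all genes 24.1%). Against those labelled WNK2 trans Ctr it gave 8 higher and 2 lower (43.5%, all genes 15.1%). ARC was higher by 1.17 ± 0.42 (adjusted p = 0.0453) and 1.35 ± 0.43 (adjusted p = 0.032). The mRNA decay factor ZFP36 was at 0.95 ± 0.28 (adjusted p = 0.0134) and -0.07 ± 0.27 (adjusted p = 0.895), so its call depends on the comparator. In WNK2 trans Sor 3 were higher and 6 lower than in WT Sor (39.1% of them, all genes 31.7%). EGR1 was at -1.46 ± 0.21 (adjusted p = 8.25e-06) and KLF6 at 0.91 ± 0.10 (adjusted p = 7.91e-08).

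Of 34 other leucine zipper genes 30 were tested. In WNK2- Sor 13 were lower than in WT Sor and 4 higher, 56.7% of them beside 46.3% of all genes. CEBPD, an acute-phase C/EBP factor, was at -2.90 ± 0.32 (adjusted p = 4.62e-08), and CREB3L1, a membrane-bound factor of secretory cells, at 0.79 ± 0.16 (adjusted p = 0.000188). MAF was lower in WT Sor than in the libraries labelled WT Ctr by -0.96 ± 0.23 (adjusted p = 0.0036) and than in those labelled WNK2 trans Ctr by -1.65 ± 0.23 (adjusted p = 1.12e-05). JDP2, a Jun dimerization partner, was at 0.61 ± 0.17 (adjusted p = 0.0104) against the former and -0.24 ± 0.17 (adjusted p = 0.372) against the latter, so no direction is given. JDP2 fell with sorbitol in WNK2- cells (-0.90 ± 0.17, adjusted p = 0.000424), and its genotype interaction was -1.51 ± 0.24 (adjusted p = 0.000164), a test that rests on the libraries labelled WT Ctr.

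Upstream, 37 of 38 genes of the MAP kinase routes were tested, and 8 were higher and 9 lower in WNK2- Sor than in WT Sor, which is 45.9% of them beside 46.3% of all genes. MAP2K6, which activates p38, was lower by -3.30 ± 0.21 (adjusted p = 2.42e-12), at 0.958 against 9.28 CPM, and MAP3K5, the stress kinase ASK1, by -1.63 ± 0.12 (adjusted p = 5.82e-11). MAP3K20, a stress kinase, was higher by 1.20 ± 0.23 (adjusted p = 0.000126). WT Sor gave 3 higher and 3 lower against the libraries labelled WT Ctr (16.2% of them, all genes 24.1%). It gave 3 higher and 1 lower against those labelled WNK2 trans Ctr (10.8%, all genes 15.1%). Against the former MAP3K5 stood at 0.76 ± 0.12 (adjusted p = 6.72e-05), and against the latter at 0.38 ± 0.12 (adjusted p = 0.0329). Of 11 dual-specificity phosphatase genes, whose products switch MAP kinases off, 10 were tested. Sorbitol came with 3 higher and 0 lower in WT cells and 5 higher and 1 lower in WNK2- cells, where 24.1% and 14.9% of all genes passed, with DUSP4 at 0.68 ± 0.11 (adjusted p = 6.52e-05) and 0.89 ± 0.11 (adjusted p = 1.41e-06). DUSP4 in WT Sor was at 0.37 ± 0.11 against the libraries labelled WNK2 trans Ctr (adjusted p = 0.0205). DUSP6, the ERK phosphatase, rose by 0.74 ± 0.10 in WT cells (adjusted p = 5.39e-06, and 0.59 ± 0.10 with adjusted p = 0.000103 against the libraries labelled WNK2 trans Ctr) and was lower in WNK2- Sor than in WT Sor by -0.79 ± 0.10 (adjusted p = 2.19e-07). In the latter comparison 4 phosphatase genes were higher and 2 lower, 60% of them beside 46.3% of all genes. The largest rise was that of DUSP7 (0.92 ± 0.11, adjusted p = 9.53e-08).

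Immediate early genes and heat shock genes can also move with how cells are handled. Of 7 heat shock genes, all tested, 5 were lower in WT Sor than in the libraries labelled WT Ctr (71.4%, all genes 24.1%). Against those labelled WNK2 trans Ctr 5 were lower (71.4%, all genes 15.1%). In WNK2- Sor 6 were higher than in WT Sor (85.7%, all genes 46.3%). HSP90AA1 was at -0.97 ± 0.08 in WT Sor against the libraries labelled WT Ctr (adjusted p = 4.56e-09). It was at 1.09 ± 0.08 in WNK2- Sor against WT Sor (adjusted p = 4.21e-11). HSP90AA1 in WT Sor was at -0.65 ± 0.08 against the libraries labelled WNK2 trans Ctr (adjusted p = 2.50e-06). Their summed level was 2781 to 2919 CPM in WT Sor, 4674 to 6265 CPM in the libraries labelled WT Ctr and 4828 to 5588 CPM in WNK2- Sor. The part of handling in the FOS and EGR1 values was not tested. Defining chondrocyte markers moved with the WNK2- groups as well, 5 of 6 tested lower in WNK2- Sor than in WT Sor (summed level 20.5 to 24.2 against 81.2 to 87.6 CPM), and so did fibroblast markers, 4 of 4 tested lower (925.2 to 1119 against 3523 to 3771 CPM). Of all genes 22.7% were lower in that comparison. In WNK2 trans Sor, where FOSL1, JUN and most targets were higher, 4 of the 6 chondrocyte markers were lower and 1 higher than in WT Sor. Of all genes 15.5% were lower and 16.1% higher there. COL2A1, ACAN, COMP and MATN3 were lower, each at a mean under 2 CPM, while HAPLN1 was higher (117 against 66.5 CPM) and carried the summed level up to between 107.7 and 156.5 CPM. In the same group 2 of 4 fibroblast markers were lower (1062 to 1792 CPM). Of 3 tested endothelial markers CDH5 was higher there by 2.42 ± 0.14 (adjusted p = 4.16e-12, summed level 98.7 to 105.8 against 59.3 to 66.9 CPM), and in WNK2- Sor PECAM1 was lower (-1.13 ± 0.14, adjusted p = 4.59e-07) and VWF higher (1.28 ± 0.34, adjusted p = 0.00293). The leukocyte marker CD14 was lower than in WT Sor in WNK2- Sor (-2.47 ± 0.19, adjusted p = 7.94e-11) and in WNK2 trans Sor (-1.24 ± 0.18, adjusted p = 7.53e-06), while PTPRC reached at most 0.483 CPM in any library. Heat shock genes in WNK2 trans Sor gave 3 higher and 1 lower than in WT Sor (57.1%, all genes 31.7%), with HSP90AA1 at 0.62 ± 0.08 (adjusted p = 1.88e-06). Fewer cells of a kind and less mRNA per cell cannot be told apart in these libraries, and the part of such shifts in the members' values was not tested.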

How the data were processed

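The authors deposited unnormalized counts for each Ensembl gene identifier from 24 poly(A) RNA-seq libraries. The submitters' notes name FastQC 0.11.9, HISAT2 2.2.1, HTSeq 2.0.2 and DESeq2 1.38.3 on GRCh38. The annotation release and the strand setting are not given in the sources used here. Of 62703 identifiers, 62625 had a symbol, and 16600 genes passed edgeR's filterByExpr (minimum count 10, minimum total 15). Counts were scaled by TMM and fitted as 6 group means with edgeR 4.0.16 (R 4.3.3) and its quasi-likelihood test. Adjusted p is Benjamini-Hochberg over all 16600 genes within each of 12 comparisons, at 0.05. The SE is the log2 fold change over the root of F. CPM uses effective library sizes, and RPKM divides CPM by merged exon length in GENCODE 29, the source of gene positions. The study calls the 4 libraries of a group biological replicates. Whether the WNK2- libraries come from several clones is not stated, so their p-values may not cover the spread between clones. Alternatives were DESeq2 1.42.0, RLE factors, no filter, the compared groups alone, a replicate block, thinning to the smallest total and leaving out each library, and, added after seeing the data, removal of GC and length trends (splines, 5 degrees of freedom) and a fit without the 2 groups in doubt. The test was checked on simulated counts. Named genes from each list, cell type markers aside, are at most 2 rises and 2 falls per comparison without overlap between groups. They are not always the largest ones. Marker genes of cell types that are named beside the results were chosen after their values were seen. Members and lists were chosen with earlier results of these data known.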

Additional observations from a re-analysis of the deposited data

Results flagged for a closer look

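Of 48 sets of 4 libraries, 1 per tested member and group, 4 had a library apart from the other 3 by a gap test that marks about 1 set in 20 by chance. FOS was at 65.9 CPM in the library labelled WNK2 trans Ctr replicate 3, where the nearest was 36.0 CPM. BATF3 was at 7.34 CPM in WNK2 trans Sor replicate 1, nearest 4.49 CPM, and at 3.08 CPM in WNK2- Ctr replicate 4, nearest 3.80 CPM. MAFF was at 25.9 CPM in WT Sor replicate 3, nearest 31.4 CPM.

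The response to sorbitol differed between groups by an interaction test in edgeR in 5 cases. Between WNK2- and WT cells it differed for FOS (-1.86 on the log2 scale, adjusted p = 0.000717). Between transfected and untransfected cells it differed for FOS (-1.09, adjusted p = 0.00765), FOSL1 (1.34, adjusted p = 0.000726), JUN (0.79, adjusted p = 0.0166) and BATF3 (-1.74, adjusted p = 0.000109). Each rests on the libraries labelled WT Ctr or WNK2 trans Ctr, whose WNK2 counts go against the labels. The JUN call was lost without WNK2 trans Sor replicate 1 (0.53, adjusted p = 0.0517).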

How the results depend on the processing

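Of the 96 tests of members, 45 passed, and 35 of those passed under every alternative that gave a test. Fitting the compared groups alone gave 747 genes for WNK2 trans Ctr against WT Ctr (2082 in the joint fit), 4824 for WNK2- Sor against WNK2- Ctr (2473) and 3018 for WNK2 trans Sor against WT Ctr (6509). The joint fit pools the spread of each gene over all groups, though groups differed in spread. The SD of FOSL1, as an example, was 39.3% of its mean CPM in WT Ctr and 5.96% in WT Sor. The SEs and the shares of all genes rest on this pooling. Removing GC and length trends gave 3178 genes and 2 members for WNK2 trans Ctr against WT Ctr, 4077 genes for WNK2- Sor against WNK2- Ctr, 4220 genes and 5 members for WT Sor against WNK2 trans Ctr (2499 and 3), and 2321 genes and 2 members for the genotype interaction (1436 and 1). It reversed JUND for WNK2 trans Ctr against WT Ctr (-0.37), WNK2 trans Sor against WT Sor (0.53), WNK2 trans Ctr (0.84) and WT Ctr (0.47), and the transfection interaction (0.90). The cause was not tested. Leaving out each library gave 3 to 6 members for WT Sor against WT Ctr (6 without WT Ctr replicate 1), 2 to 4 for WNK2 trans Sor against WT Sor, and 1 to 2 members and 849 to 1908 genes for the genotype interaction (849 without WNK2- Sor replicate 3, 944 without WNK2- Ctr replicate 2). RLE factors moved no member's group mean by over 1.02%. With the replicate number as a block, WT Sor against WT Ctr gave 3894 genes (4008 without) and no member's call changed. Same-numbered libraries did not deviate together (median r = 0.0131 over 60 pairs, 10 above 0.1, and 18 best with their own number). The fit without the libraries labelled WT Ctr and WNK2 trans Ctr could give only WNK2- Sor against WT Sor, WNK2 trans Sor against WT Sor and WNK2- Sor against WNK2- Ctr, and changed no member's call in these. Depth was lowest for BATF3 on average over the libraries, at 35 to 201 counts per library.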
